A study of Homo sapiens with 30 samples.

Results

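The question here is whether docosahexaenoic acid (DHA), an omega-3 fatty acid, alters how LX2 cells respond to betacellulin (BTC). LX2, an established human line, represents hepatic stellate cells in their activated state, in which they lay down scar collagen in the liver. The comparison used 20 of the 30 libraries, 5 in each of 4 groups, 1 per group in each of 5 numbered experiments: DHA+BTC, DHA+Veh, Veh+BTC and Veh+Veh. DHA+BTC cells had 50 µM DHA and 20 ng/ml recombinant human BTC, DHA+Veh cells DHA without BTC, Veh+BTC cells BTC without fatty acid, and Veh+Veh cells neither. All 4 groups were kept in medium with 1% serum and had 20 µM albumin. The albumin carried the fatty acid in DHA cells and was given without it in vehicle cells. The protocol text places the fatty acid before BTC, in 2 cycles of 48 h or for 96 h, with 72 h of BTC to follow, whereas the treatment labels list DHA and BTC together for 72 h. "After DHA" below therefore means with DHA as labelled, and whether DHA was still present during BTC cannot be told from the labels. Nothing in the labels says whether the 5 experiments were separate passages or days, so p-values reflect only how these samples vary, which may in part be technical. LX2 is a single line, and no second stellate line or primary cell was compared.

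Betacellulin is a ligand of the ErbB family: it binds EGFR and ERBB4, which pair with ERBB2 and ERBB3. The occupied receptors recruit adaptors such as SHC1, switch on the RAS-ERK cascade and raise immediate early transcription factors, the growth cyclin CCND1, and the DUSP, Sprouty and SPRED proteins that dampen the same cascade. ErbB signalling drives stellate cell growth, and fatty acids such as DHA act on transcription mainly through PPAR receptors and by restraining sterol-regulated lipid synthesis.

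For each gene and experiment, 3 values were formed on log2(CPM + 1), where CPM is a gene's reads scaled to a fixed library total: the BTC difference after DHA (DHA+BTC minus DHA+Veh), the BTC difference after vehicle (Veh+BTC minus Veh+Veh), and the interaction, which is the BTC difference after DHA minus that after vehicle. A positive interaction means that BTC left a gene higher, relative to its own library without BTC, after DHA than after vehicle. Adding 1 before the log understates the change of genes with low values. These are pooled cultures, so fewer cells of a kind and less RNA per cell cannot be told apart.

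The libraries held 1245182 to 9490142 reads assigned to genes, and DHA+BTC libraries (median 3233378) and DHA+Veh libraries (3303443) were shallower than Veh+BTC (4201027) and Veh+Veh libraries (3641222). A listed 0 allows up to 3 reads, which is 0.316 to 2.41 CPM depending on the library and covers counting error only. A set of 14 stellate and mesenchymal markers, 12 of them tested, summed to between 730 and 4222 CPM, against 0 to 4.37 CPM for 12 hepatocyte markers, 7.26 to 24.3 CPM for 10 endothelial markers, 54.8 to 154 CPM for 12 leukocyte markers and 149 to 820 CPM for 12 epithelial markers. The markers fit the stellate label of the line, and EGFR was present in every library. Some libraries stood apart. Over the 6178 genes averaging 20 CPM or more, Veh+BTC of experiment 1 differed most from the median of its experiment, with an SD of 0.81 across genes and correlations of 0.748 to 0.875 with the other libraries of experiment 1. DHA+BTC and DHA+Veh of experiment 5, the shallowest libraries, followed with SDs of 0.79 and 0.68, and then Veh+BTC of experiment 5 with 0.63. The lowest SD, 0.19, belonged to Veh+Veh of experiment 4.

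No gene's BTC response differed between DHA and vehicle past the threshold. Of 15137 genes tested by limma, 0 (0%) had an interaction with an adjusted p under 0.05, and the smallest adjusted p was 0.983. At an unadjusted p under 0.05 there were 527 genes (3.48%), 257 (1.7%) above 0 and 270 (1.78%) below 0. On the recovered read counts, edgeR and DESeq2 called 0 genes each, with 427 (2.82%) and 501 (3.31%) at an unadjusted p under 0.05. limma on the 5 per-experiment values called 0, with 415 (2.74%) unadjusted. The median interaction over all genes was -0.01. An interaction of the same sign in 5 of 5 experiments was seen for 713 genes (4.71%), 287 (1.9%) above 0 and 426 (2.81%) below 0. These data do not show that the responses were alike. The 95% interval of the interaction had a median half-width of 0.91, and it lay within ±1 for 4732 genes, 31.3% of those tested. Abundant genes were the better resolved: the median half-width was 0.58 for genes averaging over 100 CPM and 1.05 for those under 5 CPM. An interaction of 1 log2 unit in either direction is thus outside the interval for 73.6% of the most abundant class of genes and for 5.29% of the least abundant.

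The BTC response itself gave few calls in either arm. After DHA, 0 of 15137 genes (0%) passed an adjusted p of 0.05 by limma, with 629 (4.16%) at an unadjusted p under 0.05, and edgeR and DESeq2 also called 0, with 430 (2.84%) and 523 (3.46%) unadjusted. Of the 629, 259 (1.71%) were higher and 370 (2.44%) lower with BTC, a split that turned round in edgeR (237 higher, 193 lower) and DESeq2 (340 higher, 183 lower). After vehicle, limma again called 0 genes (0%), but 1539 (10.2%) had an unadjusted p under 0.05, of which 551 (3.64%) were higher and 988 (6.53%) lower with BTC. This split also turned round, with 717 higher and 601 lower in edgeR and 927 higher and 679 lower in DESeq2. The 1539 fell to 688 without Veh+BTC of experiment 1, to 722 without Veh+BTC of experiment 5 and to 385 without both, where the count after DHA was 708. Without Veh+BTC of experiment 2 or 4 it was 2498 or 2333. Leaving out Veh+BTC of both experiments 1 and 5, here and below, was chosen after seeing the data. It takes libraries from the vehicle arm alone. edgeR called 0 after vehicle, with 1318 (8.71%) unadjusted, and DESeq2 called 1 (0.00661%), with 1606 (10.6%) unadjusted. The 1 gene was the signal recognition particle RNA gene RN7SL1, named after its value was seen. Which arm held more genes at an unadjusted p thus depended on those libraries, and the interaction above is the test of the difference. DHA itself gave calls: averaged over BTC and its vehicle, in the fit of 30 libraries, it changed 1621 genes (10.7%) at an adjusted p under 0.05 by limma, 352 (2.33%) up and 1269 (8.38%) down. The median gene moved by -0.13 with DHA on this scale, and with TMM scaling the calls were 529 up and 757 down. The 1621 became 1001 with only the 20 libraries, 321 with the experiment as a block within each pretreatment and 104 with no block. Of the 352 genes higher with DHA, 15 (4.26%) had an interaction at an unadjusted p under 0.05, 14 of them above 0. Of the 1269 lower with DHA it was 32 (2.52%), 9 of them above 0. Of all genes it was 527 (3.48%), 257 of them above 0. The DHA average and the interaction use the same libraries, Veh+BTC among them, so these counts are descriptive. The median interaction of the 352 genes was 0.42 and 0.37 in experiments 1 and 5. In experiments 2 to 4 it was -0.02, -0.09 and -0.02.

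**Figure D1:**
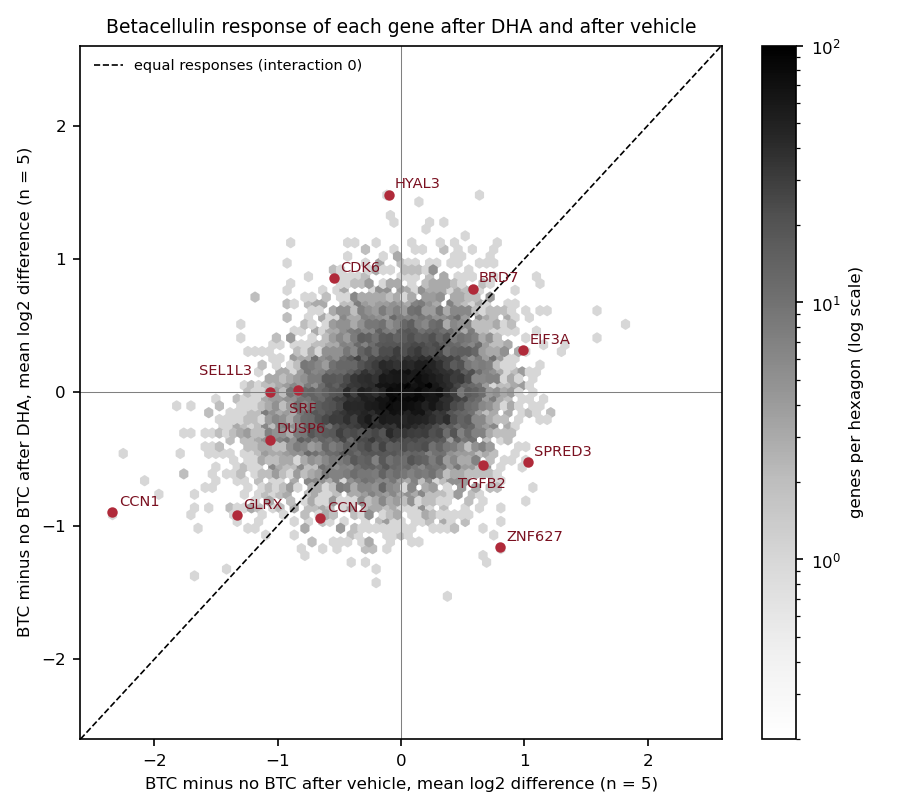
Mean BTC difference of each of the 15137 tested genes after DHA (vertical axis, log2) against that after vehicle (horizontal axis, log2), each over 5 experiments. Shading counts genes per hexagon, the dashed line marks an interaction of 0, and red points are named genes. ZNF627 and HYAL3 lie far from the line on opposite sides, GLRX and BRD7 lie close to it, and CCN1 stands at -2.34 after vehicle.

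Across the 15137 genes, the mean BTC difference after DHA and the mean BTC difference after vehicle correlated weakly (Pearson r = 0.22; r = 0.40 over the 6178 genes averaging 20 CPM or more). These 2 sets of differences share no library, but they share the 5 experiments, and genes are not independent replicates. Within single experiments the correlation over the 6178 genes ran from -0.45 in experiment 1 to 0.23 in experiment 3.

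The interaction differed in size and pattern between experiments. The SD across genes of the BTC difference after DHA was 0.37, 0.46, 0.44, 0.48 and 0.62 in experiments 1 to 5, against 1.04, 0.45, 0.65, 0.26 and 0.89 after vehicle. The vehicle arm thus varied more in size between experiments than the DHA arm. After vehicle, the profiles of experiments 1 and 5 resembled each other (r = 0.73) and ran against experiment 2 (r = -0.52 and -0.39). After DHA, no pair of experiments correlated above 0.28. Interaction profiles correlated between -0.76 (experiments 1 and 2) and 0.60 (experiments 1 and 5), with a median of 0.03 over the 10 pairs. GC content of the last 500 bases of the transcript moved with them: its correlation with the interaction was -0.37, 0.19, 0.07, 0.08 and -0.17 in experiments 1 to 5, over the 14865 genes (98.2%) with a value. Its part in the interaction was tested only by removing the trend, after which 0 genes were called and 600 had an unadjusted p under 0.05. With Veh+BTC of experiments 1 and 5 left out, limma called 0 genes, and 395 had an unadjusted p under 0.05. Of the 527 genes, 197 were among those 395. DHA+BTC and DHA+Veh of experiment 5 were kept in that fit. Their SDs from the experiment median, 0.79 and 0.68, exceeded the 0.63 of Veh+BTC of experiment 5. The mitochondrial share of reads had a negative interaction in all 5 experiments, with -0.714, -0.146, -0.739, -0.582 and -0.860 percentage points in experiments 1 to 5 and a mean of -0.608. Its part in the results below was not tested. The exact sign-flip test over experiments gave a two-sided p of 0.0625, the smallest that 5 experiments allow, and 0.3125 adjusted over 5 library measures.

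**Figure D2:**
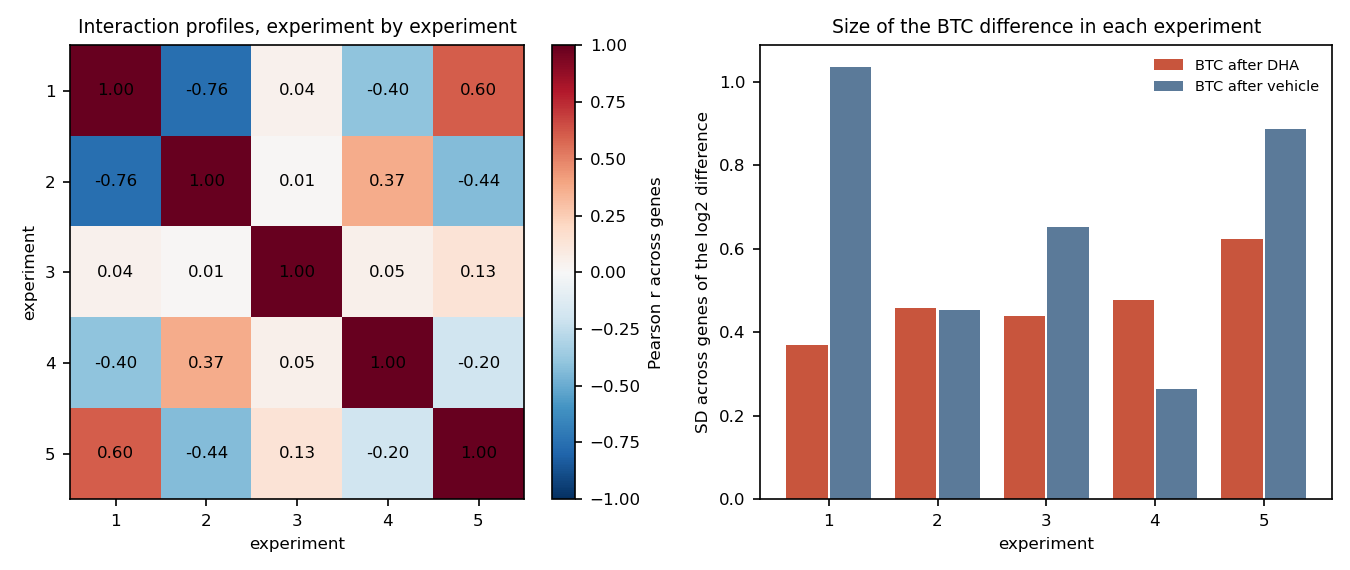
Left, Pearson correlation across 6178 genes of the interaction profile between each pair of experiments, with colour from -1 to 1. Right, SD across the same genes of the BTC difference after DHA (red bars) and after vehicle (blue bars) in each experiment; the vehicle bars reach 1.04 in experiment 1 and 0.26 in experiment 4.

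Among the ErbB receptors, 3 of 4 passed the filter on low values and none had an unadjusted p under 0.05 for the interaction. EGFR, the main BTC receptor, had 66.7, 64.4, 19.5, 6.24 and 34.5 CPM in DHA+BTC cells of experiments 1 to 5, against 51.7, 67.3, 19.1, 7.41 and 33.8 CPM in DHA+Veh cells. It had 31.4, 49.4, 18.6, 15.2 and 16.8 CPM in Veh+BTC cells, against 64.8, 41.2, 18.7, 15.8 and 28.5 CPM in Veh+Veh cells. EGFR thus stayed near its experiment's level after DHA, and after vehicle it was clearly lower with BTC in experiments 1 and 5, the experiments whose Veh+BTC libraries stood apart. Its interaction was 0.34 (SE 0.36, 95% interval -0.39 to 1.07). Leaving out those libraries of experiments 1 and 5 put it at -0.01. ERBB2, the partner receptor without a known ligand, averaged 24.6 ± 5.26 CPM in DHA+BTC cells, 29.4 ± 11.4 in DHA+Veh cells, 42.1 ± 16.2 in Veh+BTC cells and 35.4 ± 2.63 in Veh+Veh cells (SD, n = 5 each). Its interaction was -0.36 (-1.01 to 0.29) and negative in 4 of 5 experiments. DHA lowered ERBB2 on average over BTC and its vehicle (log2 difference -0.52, adjusted p = 0.0327 by limma), with no such call for EGFR. ERBB3 reached at most 3.14 CPM. ERBB4, the other BTC receptor, was listed at 0 in 19 of these 20 libraries and at 0.348 CPM in the other, and the BTC gene at 0 in 18 of 20.

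Of 9 ErbB ligands, 4 were tested and none had an unadjusted p under 0.05. HBEGF, a heparin-binding EGF-like ligand, rose with DHA (0.56, adjusted p = 0.0472 by limma), and its interaction was -0.01 (-0.76 to 0.74). NRG1, an ERBB3 and ERBB4 ligand, had an interaction of 0.60 that ranged from -1.75 in experiment 3 to 2.69 in experiment 5, and was 0.10 without Veh+BTC of experiments 1 and 5. All 16 adaptors, sheddases and turnover genes were tested, again with none at an unadjusted p under 0.05. SHC1, the adaptor that links receptors to RAS, showed a negative interaction in 5 of 5 experiments at -0.33 (-0.75 to 0.08), and -0.20 without Veh+BTC of experiments 1 and 5. LRIG1, a membrane protein that promotes ErbB degradation, had 103, 30.2, 33.7, 37.0 and 67.5 CPM in DHA+BTC cells, against 90.1, 44.6, 29.1, 28.3 and 77.3 CPM in DHA+Veh cells. It had 19.7, 58.6, 18.6, 48.6 and 22.2 CPM in Veh+BTC cells, against 92.4, 41.5, 29.2, 45.2 and 85.3 CPM in Veh+Veh cells. Its interaction of 0.83 (-0.19 to 1.85) was 0.07 without Veh+BTC of experiments 1 and 5.

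The ERK feedback genes gave no common direction. Of 12 tested, 4 had an interaction above 0 and 8 below, with a median of -0.18 against -0.01 over all genes, and 1 (8.33%) had an unadjusted p under 0.05 against 3.48% of all genes. That gene was SPRED3, a RAS-ERK inhibitor of the SPRED family, at 4.92, 12.1, 5.57, 13.8 and 0 CPM in DHA+BTC cells, against 6.38, 7.67, 7.57, 11.4 and 5.85 CPM in DHA+Veh cells. In Veh+BTC cells it had 10.5, 4.06, 7.68, 6.90 and 6.23 CPM, all above their own Veh+Veh cells at 4.32, 2.47, 1.17, 5.86 and 2.00 CPM. Its interaction was -1.55 (-2.78 to -0.32, unadjusted p = 0.0152 and adjusted p = 0.983 by limma), but it was close to 0 in experiments 2 and 4. Without experiment 5, whose DHA+BTC library listed SPRED3 at 0, it was -0.93. DUSP6, the phosphatase that switches off ERK, was far more abundant: 518, 155, 144, 124 and 155 CPM in DHA+BTC cells, against 435, 272, 211, 218 and 139 CPM in DHA+Veh cells. It had 54.7, 153, 53.2, 161 and 32.8 CPM in Veh+BTC cells, against 502, 94.7, 98.8, 137 and 152 CPM in Veh+Veh cells. BTC cells thus had less DUSP6 after vehicle in experiments 1, 3 and 5, and after DHA in experiments 2 to 4. The DUSP6 interaction of 0.71 (-0.51 to 1.93) spanned -1.5 in experiment 2 to 3.42 in experiment 1 and was -0.10 without Veh+BTC of experiments 1 and 5. SPRY1, a Sprouty inhibitor, had an interaction below 0 in 5 of 5 experiments at levels of 0 to 8.36 CPM (-1.11, 95% interval -2.24 to 0.03). SPRY4 had -0.78 (-2.12 to 0.55) at up to 4.85 CPM.

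**Figure D3:**
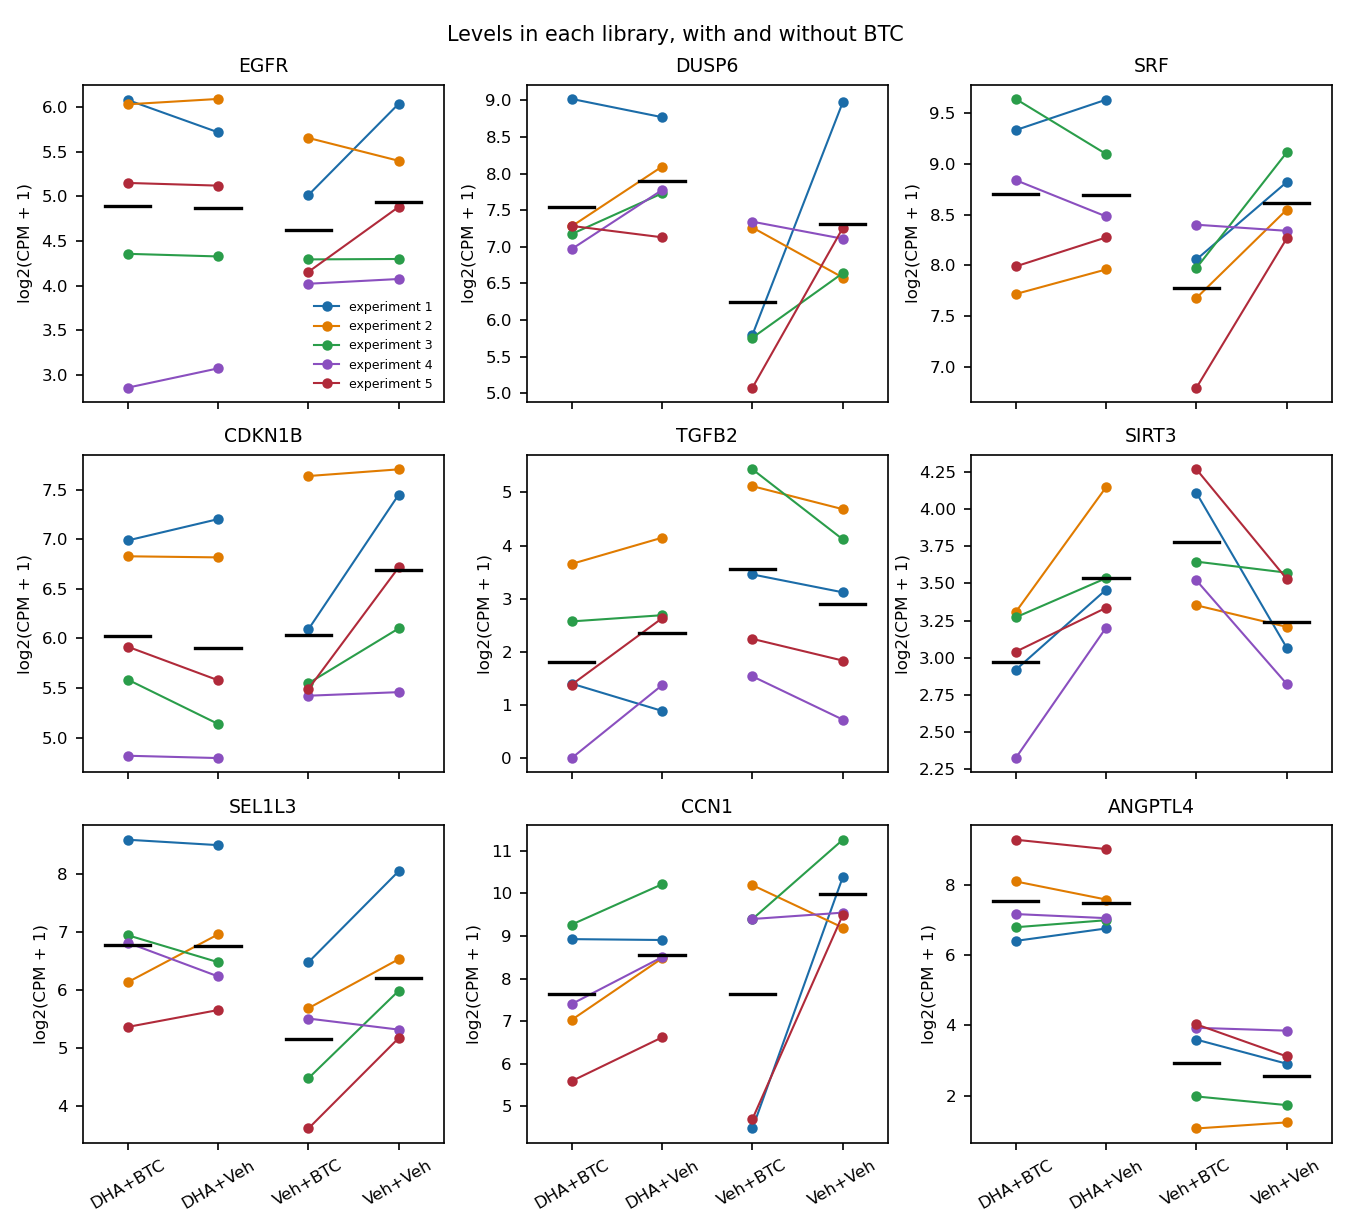
Level of 9 genes, log2(CPM + 1), in each of the 20 libraries. Groups run DHA+BTC, DHA+Veh, Veh+BTC, Veh+Veh, lines join the libraries of an experiment within a pretreatment, and black bars are group means (n = 5). SIRT3 lines slope opposite ways in the 2 arms in all 5 experiments, whereas DUSP6 and CCN1 are far lower with BTC after vehicle in experiments 1 and 5, and all DHA libraries lie above all vehicle libraries for ANGPTL4.

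Of 17 ERK-induced targets, 10 were above 0 and 7 below, and none had an unadjusted p under 0.05. EMP1, an epithelial membrane protein used as an ERK output, had an interaction of 0.68 (-0.31 to 1.66), which was -0.09 without Veh+BTC of experiments 1 and 5. HMGA2, a chromatin protein, rose with DHA by 1.81 (adjusted p = 3.46e-06 by limma), yet its interaction was 0.40 (-0.51 to 1.30). ETV4, an ETS factor, was higher with BTC in 5 of 5 experiments after vehicle and in 4 of 5 after DHA, with an interaction of -0.43 (-1.39 to 0.53) that was -0.10 without experiment 5. Among 20 immediate early genes, 13 were above 0, and 1 (5%) had an unadjusted p under 0.05, against 3.48% of all genes. This was SRF, the serum response factor that drives early genes and actin genes: 644, 209, 798, 457 and 253 CPM in DHA+BTC cells, against 794, 248, 547, 357 and 309 CPM in DHA+Veh cells. It had 265, 204, 250, 337 and 110 CPM in Veh+BTC cells, against 451, 374, 553, 323 and 307 CPM in Veh+Veh cells. BTC cells had less SRF in 4 of 5 experiments after vehicle and in 3 of 5 after DHA, and the interaction was above 0 in all 5 (0.85, 95% interval 0.22 to 1.49, unadjusted p = 0.0103, adjusted p = 0.983 by limma). It lay between 0.63 and 1.06 under the 44 alternatives tried, which reuse the same libraries. JUN, an AP-1 subunit, was also above 0 in 5 of 5 experiments, at 0.48 (-0.10 to 1.05), and 0.22 without Veh+BTC of experiments 1 and 5. EGR1, a classical early gene, had 0.90 (-0.08 to 1.89), which was 0.33 without those libraries, and FOSL1, an AP-1 partner induced by ERK, -0.06 (-0.81 to 0.69).

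Of 25 mitotic genes none had an unadjusted p under 0.05, and their median interaction was -0.04. MKI67, the proliferation antigen, averaged 123 CPM in DHA+BTC cells, 115 in DHA+Veh cells, 177 in Veh+BTC cells and 161 in Veh+Veh cells. DHA lowered MKI67 (-0.85, adjusted p = 0.000513 by limma), and its interaction was 0.03 (-0.61 to 0.66). CCNB2, a mitotic cyclin, had 0.57 (-0.26 to 1.39), and TPX2, a spindle assembly factor, -0.30 (-0.91 to 0.31). Without Veh+BTC of experiments 1 and 5 these were 0.05 and -0.07. Of 29 replication genes, 1 had an unadjusted p under 0.05 in each direction, 6.9% in total against 3.48% of all genes. CDC6, which loads the replicative helicase, had 41.3, 51.2, 26.9, 27.6 and 46.6 CPM in DHA+BTC cells, against 31.7, 53.0, 24.2, 11.9 and 30.5 CPM in DHA+Veh cells. It had 43.0, 80.2, 26.6, 23.3 and 46.5 CPM in Veh+BTC cells, against 58.4, 63.7, 35.4, 33.6 and 68.4 CPM in Veh+Veh cells. CDC6 was therefore higher with BTC in 4 of 5 experiments after DHA and lower in 4 of 5 after vehicle, with experiment 2 the exception in both arms (interaction 0.76, 95% interval 0.23 to 1.28, unadjusted p = 0.00653). POLE, a catalytic subunit of a replicative polymerase, ran the other way at -0.65 (-1.26 to -0.03) and was lower with BTC in 5 of 5 experiments after DHA.

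The G1 cyclins and CDK inhibitors had the highest median of the 30 gene lists with tested members, 0.43, with 13 of 15 above 0 and 2 (13.3%) at an unadjusted p under 0.05, against 7458 of 15137 above 0 and 3.48% over all genes. Their median was 1.07, 0.06, 0.32, 0.04 and 0.85 in experiments 1 to 5, with the 2 highest in the experiments whose Veh+BTC libraries stood apart. CDK6, a kinase of the G1 phase, had 28.4, 29.9, 13.0, 6.69 and 4.82 CPM in DHA+BTC cells, against 18.5, 24.7, 15.7, 0.529 and 1.30 CPM in DHA+Veh cells. It had 18.2, 62.9, 12.7, 5.24 and 3.11 CPM in Veh+BTC cells, against 46.2, 38.2, 19.5, 8.03 and 7.41 CPM in Veh+Veh cells. Its interaction was 1.40 (0.35 to 2.45, unadjusted p = 0.0106), with experiment 2 alone below 0, and 1.04 without Veh+BTC of experiments 1 and 5. The CDK6 values of 0.529 and 1.30 CPM in DHA+Veh cells of experiments 4 and 5 are those of a few reads. CDKN1B, which encodes the inhibitor p27, was lower with BTC in 5 of 5 experiments after vehicle and higher in 4 of 5 after DHA (interaction 0.77, 95% interval 0.12 to 1.42, unadjusted p = 0.0222). Without Veh+BTC of experiments 1 and 5 that value was 0.35. CDKN2B, the inhibitor p15, had 0.57 (-0.26 to 1.39) and was also above 0 in 5 of 5, with 0.37 without those libraries. CCND1, the cyclin that growth factors induce, averaged 575 ± 316 CPM in DHA+BTC cells, 547 in DHA+Veh cells, 328 in Veh+BTC cells and 442 in Veh+Veh cells. Its interaction was above 0 in 5 of 5 experiments at 0.46 (-0.23 to 1.15), and 0.21 without those 2 libraries.

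The stellate activation and matrix genes had medians near that of all genes. Of 16 contractile and activation genes and 16 collagens, none had an unadjusted p under 0.05, and the medians were 0.09 and 0.02. ACTA2, the smooth muscle actin that marks activated stellate cells, had 27.1, 20.5, 37.1, 25.0 and 14.5 CPM in DHA+BTC cells, against 42.7, 26.8, 46.9, 40.2 and 13.6 CPM in DHA+Veh cells. It had 49.0, 36.3, 101, 39.3 and 82.2 CPM in Veh+BTC cells, against 39.4, 72.5, 169, 57.7 and 101 CPM in Veh+Veh cells. DHA lowered ACTA2 (-1.25, adjusted p = 0.000608 by limma), BTC cells had less of it in 4 of 5 experiments in each arm, and the interaction was 0.06 (-0.90 to 1.02). COL1A1, the main chain of scar collagen, averaged 779 CPM in DHA+BTC cells, 825 in DHA+Veh cells, 948 in Veh+BTC cells and 1108 in Veh+Veh cells, with an interaction of 0.01 (-0.64 to 0.66). COL1A2 had -0.13 (-1.34 to 1.08) on the log2 scale, but 15.1 CPM above 0 when CPM were subtracted directly, so its sign depended on the scale. COL3A1, another fibril collagen, had 0.13 (-0.65 to 0.91). TIMP1, an inhibitor of matrix proteases, rose with DHA (1.04, adjusted p = 4.96e-05 by limma) and had an interaction of 0.13 (-0.52 to 0.77). SPARC, a collagen-binding glycoprotein, had 0.49 (-0.20 to 1.19), and -0.01 without Veh+BTC of experiments 1 and 5. Among 17 matrix glycoproteins, 1 (5.88%) had an unadjusted p under 0.05, against 3.48% of all genes. This was LAMB1, a laminin chain of basement membranes, at 0.83 (95% interval 0.09 to 1.58), and 0.35 without those libraries.

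CCN1 and CCN2 are matricellular targets of YAP and SRF. CCN1 varied widely: 486, 130, 616, 168 and 47.4 CPM in DHA+BTC cells, against 479, 355, 1188, 362 and 97.5 CPM in DHA+Veh cells. It had 21.4, 1170, 674, 674 and 25.1 CPM in Veh+BTC cells, against 1336, 586, 2452, 748 and 721 CPM in Veh+Veh cells. After vehicle, BTC cells had far less CCN1 in experiments 1 and 5 and more of it in experiment 2. The CCN1 interaction accordingly ran through 5.92, -2.44, 0.92, -0.95 and 3.76 in experiments 1 to 5, with a mean of 1.44 (-0.67 to 3.56), and became -0.16 without Veh+BTC of experiments 1 and 5. CCN2 had 39.9, 101, 65.9, 13.8 and 14.5 CPM in DHA+BTC cells, against 43.6, 225, 126, 33.6 and 37.0 CPM in DHA+Veh cells. It had 74.4, 264, 298, 60.2 and 95.9 CPM in Veh+BTC cells, against 218, 239, 474, 72.1 and 186 CPM in Veh+Veh cells. BTC cells had less CCN2 in 5 of 5 experiments after DHA and in 4 of 5 after vehicle, and the interaction was -0.29 (-1.06 to 0.48). The summed stellate and mesenchymal markers were also lower with BTC after vehicle in experiments 1 and 5. They were 1693 CPM in Veh+BTC, against 3368 CPM in Veh+Veh, in experiment 1, and 2118 against 3967 CPM in experiment 5. In experiments 2 to 4 they were 3964 against 4222, 3086 against 3359 and 1544 against 1595 CPM. After DHA, they were 1864, 2611, 1445, 730 and 2244 CPM with BTC in experiments 1 to 5. Without BTC they were 1516, 3475, 1799, 1154 and 2410 CPM there. Their part in the interaction was not tested.

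Of 19 TGF-beta genes, 1 (5.26%) had an unadjusted p under 0.05, against 3.48% of all genes. TGFB2, a TGF-beta ligand, had 1.64, 11.6, 4.95, 0 and 1.61 CPM in DHA+BTC cells, against 0.850, 16.7, 5.45, 1.59 and 5.20 CPM in DHA+Veh cells. It had 9.98, 33.7, 42.3, 1.90 and 3.74 CPM in Veh+BTC cells, against 7.69, 24.7, 16.3, 0.651 and 2.57 CPM in Veh+Veh cells. TGFB2 was higher with BTC in 5 of 5 experiments after vehicle and lower in 4 of 5 after DHA, the exception being experiment 1 (interaction -1.21, 95% interval -2.24 to -0.17, unadjusted p = 0.0234, adjusted p = 0.983 by limma). It ran from -1.59 to -0.71 under the 44 alternatives, and was -1.35 without Veh+BTC of experiments 1 and 5. In experiment 4 no TGFB2 value exceeded 1.90 CPM, near the level of a few reads, as was the 1.61 CPM of DHA+BTC in experiment 5. DHA lowered TGFB2 on average (-1.15, adjusted p = 0.00296 by limma). TGFB1, the main fibrogenic ligand, had -0.09 (-1.05 to 0.88). INHBA, the activin A subunit, was higher with BTC in 5 of 5 experiments after DHA and in 3 of 5 after vehicle, with an interaction of 0.86 (-0.15 to 1.87) that was 0.26 without Veh+BTC of experiments 1 and 5 and 0.40 without experiment 5 as a whole.

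Genes that DHA raised strongly also had no interaction call. ANGPTL4, a PPAR target that inhibits lipoprotein lipase, averaged 246 CPM in DHA+BTC cells, 214 in DHA+Veh cells, 8.96 in Veh+BTC cells and 6.28 in Veh+Veh cells. Its interaction was -0.28 on the log2 scale (-1.58 to 1.02) and 28.8 CPM by subtraction of CPM, so its sign depended on the scale. CXCL8, the neutrophil chemokine IL-8, averaged 238 CPM in DHA+BTC cells, 164 in DHA+Veh cells, 5.58 in Veh+BTC cells and 7.99 in Veh+Veh cells, and DHA raised ANGPTL4 by 4.76 and CXCL8 by 3.99 (adjusted p = 2.36e-11 and 9.33e-07 by limma). Its interaction ran from 3.05 in experiment 1 to -0.85 in experiment 4 (mean 0.69, -1.17 to 2.55), with a mean of 0.10 without experiment 1. MMP1, a collagen-cleaving protease, was higher with BTC in 5 of 5 experiments after vehicle and in 4 of 5 after DHA, with an interaction of -0.25 (-1.36 to 0.86). Over all genes, 1860 (12.3%) changed the sign of the interaction between the log2 and the CPM scale, though none of the 527 with an unadjusted p under 0.05 did. None of 30 cytokine, chemokine and NF-kB genes had an unadjusted p under 0.05, and their median of 0.34 was 1.55 in experiment 1 and -0.21 in experiment 2. IL32, a cytokine, had -0.60 (-1.25 to 0.05), and -0.18 without Veh+BTC of experiments 1 and 5.

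In lipid metabolism, HADHA, a subunit of the mitochondrial enzyme complex of long-chain fatty acid oxidation, was the 1 of 19 PPAR and oxidation genes at an unadjusted p under 0.05. That is 5.26% of the list, against 3.48% of all genes. HADHA had 70.5, 110, 60.0, 48.6 and 67.5 CPM in DHA+BTC cells, against 81.0, 129, 66.0, 51.9 and 108 CPM in DHA+Veh cells. It had 111, 106, 113, 64.7 and 143 CPM in Veh+BTC cells, against 73.8, 87.6, 60.7, 60.8 and 111 CPM in Veh+Veh cells. BTC cells had less HADHA in 5 of 5 experiments after DHA and more in 5 of 5 after vehicle, although the 4 groups overlapped (interaction -0.70, 95% interval -1.26 to -0.15, unadjusted p = 0.0144, adjusted p = 0.983 by limma). Of 14 lipid droplet genes, 1 (7.14%) had an unadjusted p under 0.05, PNPLA2, the triglyceride lipase ATGL (-0.69, -1.35 to -0.02). DGAT2, which makes triglyceride, had -0.71 (-1.48 to 0.05) with a negative sign in 5 of 5. Of 25 sterol genes, HSD17B7, a cholesterol synthesis enzyme, was the 1 (4%) below 0 at an unadjusted p under 0.05, at levels of 0 to 6.04 CPM. Its interaction of -1.19 (-2.35 to -0.04) was -0.36 without experiment 5. HMGCS1, an early enzyme of the same pathway, had 0.64 (-0.13 to 1.41), and SCD, the stearoyl-CoA desaturase, 0.70 (-0.10 to 1.5). Without Veh+BTC of experiments 1 and 5 these were 0.27 and 0.21.

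Of 25 hypoxia and glycolysis genes, 1 (4%) had an unadjusted p under 0.05, against 3.48% of all genes. This was NDRG1 (-0.95), at 0 to 1.71 CPM, near the level of a few reads. SLC2A3, a glucose transporter, and PFKFB3, an activator of glycolysis, both rose with DHA (1.12 and 1.17, adjusted p = 5.12e-05 and 0.00019 by limma), and both had an interaction above 0 in 5 of 5 experiments, at 0.59 (-0.10 to 1.28) and 0.71 (-0.10 to 1.51). Without Veh+BTC of experiments 1 and 5 these were 0.38 and 0.20. DNAJB9, a chaperone cofactor of the endoplasmic reticulum, had 1.48 (-0.11 to 3.08) and ranged from -1.83 in experiment 2 to 5.17 in experiment 1, without which it was 0.56.

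Of the 31 gene lists, 30 had tested members, none held a gene called by limma, and 11 held 1 or more at an unadjusted p under 0.05. The lists share members, and all of them were chosen with earlier results known. Their medians ran from -0.18 to 0.43, and 3 of 30 kept the sign of their median in 5 of 5 experiments: G1 cyclins and CDK inhibitors, hypoxia and glycolysis (0.03 to 0.20), and NRF2 and antioxidant genes (0.04 to 0.35). Of single genes, 713 of 15137 (4.71%) kept their sign. Whether 3 of 30 lists is more than chance gives was not tested. Medians of 16 ErbB adaptors ran from 1.10 in experiment 1 to -0.76 in experiment 2, and of 17 YAP-TEAD targets from 1.28 to -0.77. The whole table leaned the same way by less, at 0.26 in experiment 1 and -0.13 in experiment 2.

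**Figure D4:**
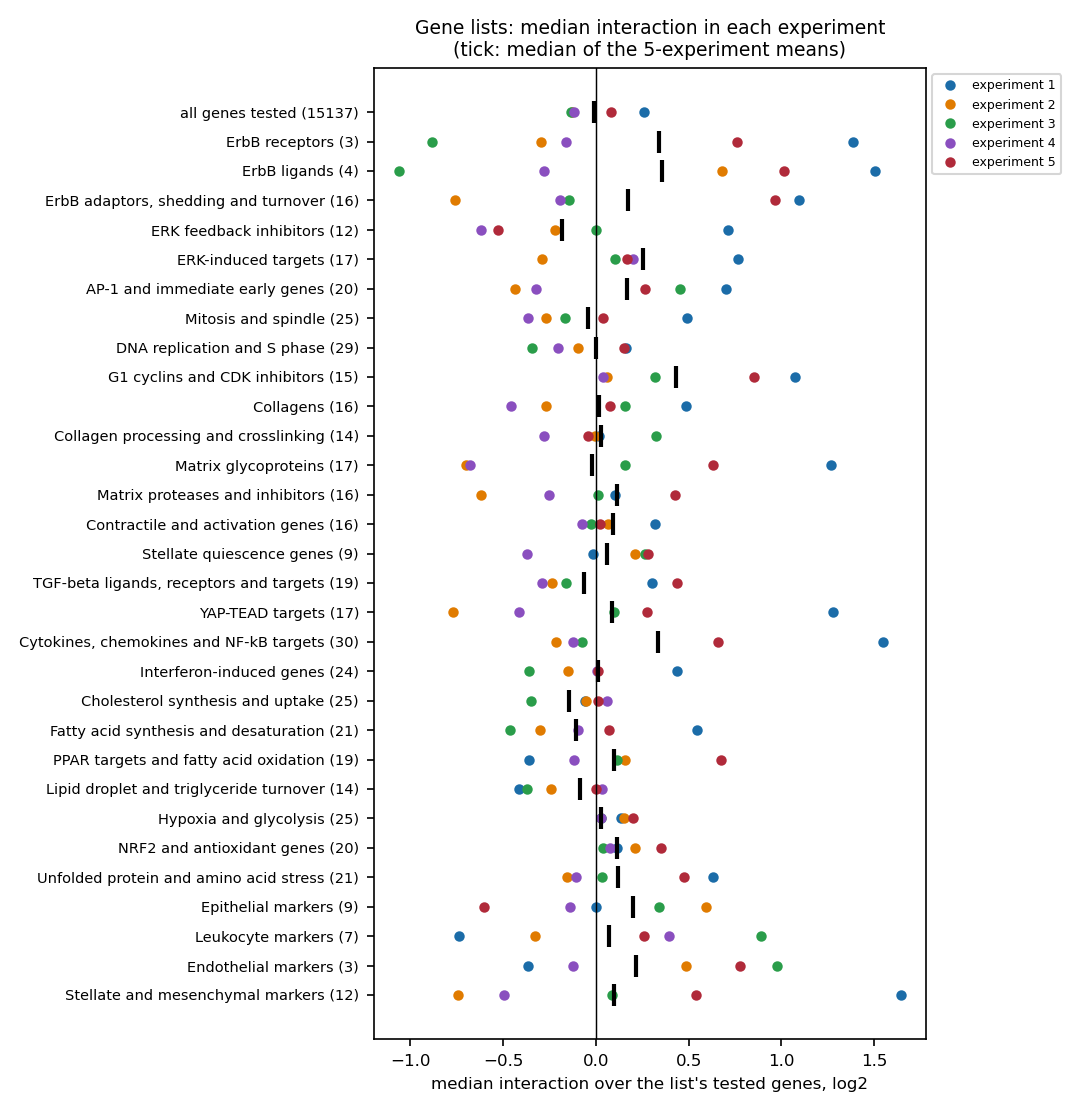
Median interaction (log2, horizontal axis) over the tested genes of each list, in each of 5 experiments (coloured points), with the median of the 5-experiment means as a black tick and the number of tested genes in brackets. The ticks lie between -0.18 and 0.43, whereas medians of single experiments spread from -1.06 to 1.64.

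The genes with the smallest interaction p were chosen by that p, and their values are descriptive. Among genes averaging 5 CPM or more in some group, the 12 leading ones above 0 had interactions of 0.76 to 1.98 and unadjusted p-values of 0.0028 to 0.00817. The 12 below 0 had -1.96 to -0.80, with p-values of 0.000644 to 0.00891. All had an adjusted p of 0.983 by limma. Of them, 6 above 0 and 8 below 0 had that sign in 5 of 5 experiments. Among the 50 genes of smallest p in limma, 32 were also in edgeR's 50, 33 in DESeq2's, and 14 in all of these and the per-experiment limma.

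Above 0, AATK, the apoptosis-associated tyrosine kinase, had similar values in the 5 experiments. It had 13.4, 13.5, 8.04, 12.9 and 25.7 CPM in DHA+BTC cells, against 7.87, 6.27, 11.2, 6.09 and 9.10 CPM in DHA+Veh cells. It had 3.71, 8.11, 5.91, 6.19 and 9.55 CPM in Veh+BTC cells, against 6.85, 7.69, 17.9, 8.03 and 9.98 CPM in Veh+Veh cells. The AATK interaction was 0.93 to 1.46 in the 5 experiments (mean 1.23, 95% interval 0.43 to 2.02). SEL1L3 had 386, 69.3, 122, 112 and 40.2 CPM in DHA+BTC cells, against 362, 124, 88.4, 74.4 and 49.4 CPM in DHA+Veh cells. It had 88.4, 50.5, 21.3, 44.5 and 11.2 CPM in Veh+BTC cells, against 265, 91.7, 62.7, 38.9 and 35.1 CPM in Veh+Veh cells. SEL1L3 was lower with BTC in 4 of 5 experiments after vehicle, with a mean BTC difference near 0 after DHA, where it was itself higher (DHA average 1.09, adjusted p = 9.72e-05 by limma). The interaction was 1.07 (0.36 to 1.77). HYAL3, of the hyaluronidase family, had 7.66, 2.43, 7.73, 7.13 and 1.61 CPM in DHA+BTC cells, all above their own DHA+Veh cells at 0.850, 0.697, 1.82, 2.65 and 0 CPM. It had 2.28, 4.24, 6.80, 7.38 and 4.36 CPM in Veh+BTC cells, against 1.79, 2.47, 17.1, 9.99 and 3.42 CPM in Veh+Veh cells (interaction 1.58, 0.56 to 2.61). In experiment 5 the DHA+BTC value of HYAL3, 1.61 CPM, is under the 2.41 CPM that 3 reads make there. Its DHA+Veh values of 0.850 and 0.697 CPM are also those of a few reads. SSH2, a phosphatase that activates the actin-severing protein cofilin, was higher with BTC in 5 of 5 experiments after DHA and lower in 5 of 5 after vehicle. Its interaction of 1.46 (0.48 to 2.45) held 3.65 from experiment 5, where DHA+Veh cells had 2.6 CPM, and was 0.92 without that experiment. PROSER1 (1.21) and CDC123, an assembly factor of the translation initiator eIF2 (0.91), had 0.90 and 0.45 without Veh+BTC of experiments 1 and 5.

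Below 0, the smallest p among these genes was that of ZNF627, a zinc finger gene. ZNF627 had 5.74, 5.93, 1.24, 0 and 0.803 CPM in DHA+BTC cells, all below their own DHA+Veh cells at 7.87, 10.5, 1.51, 5.03 and 5.85 CPM. It had 11.1, 7.37, 3.55, 1.67 and 6.43 CPM in Veh+BTC cells, against 5.16, 8.24, 0.389, 1.95 and 1.43 CPM in Veh+Veh cells. The interaction was -1.96 (-3.02 to -0.91) and negative in 5 of 5, at levels of a few reads in the shallow libraries. SIRT3, the mitochondrial deacetylase, had 6.56, 8.90, 8.66, 4.01 and 7.23 CPM in DHA+BTC cells, against 9.99, 16.7, 10.6, 8.21 and 9.10 CPM in DHA+Veh cells. It had 16.2, 9.22, 11.5, 10.5 and 18.3 CPM in Veh+BTC cells, against 7.38, 8.24, 10.9, 6.08 and 10.6 CPM in Veh+Veh cells. BTC cells had less SIRT3 in 5 of 5 experiments after DHA and more in 5 of 5 after vehicle (interaction -1.10, -1.86 to -0.35). TRIM26, a ubiquitin ligase, had -0.87 (-1.44 to -0.29) and was higher with BTC in 5 of 5 experiments after vehicle. ZDHHC4, a palmitoyltransferase, had -0.80 (-1.36 to -0.24), and TNFRSF14, a receptor of the TNF family, -1.13 (-1.93 to -0.33). CLK4, a kinase of splicing factors, had -1.35 (-2.26 to -0.44), of which experiment 3 gave -4.14. NEK1, a kinase of cilia and DNA repair, had -1.67 (-2.65 to -0.69), with experiment 1 above 0.

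**Figure D5:**
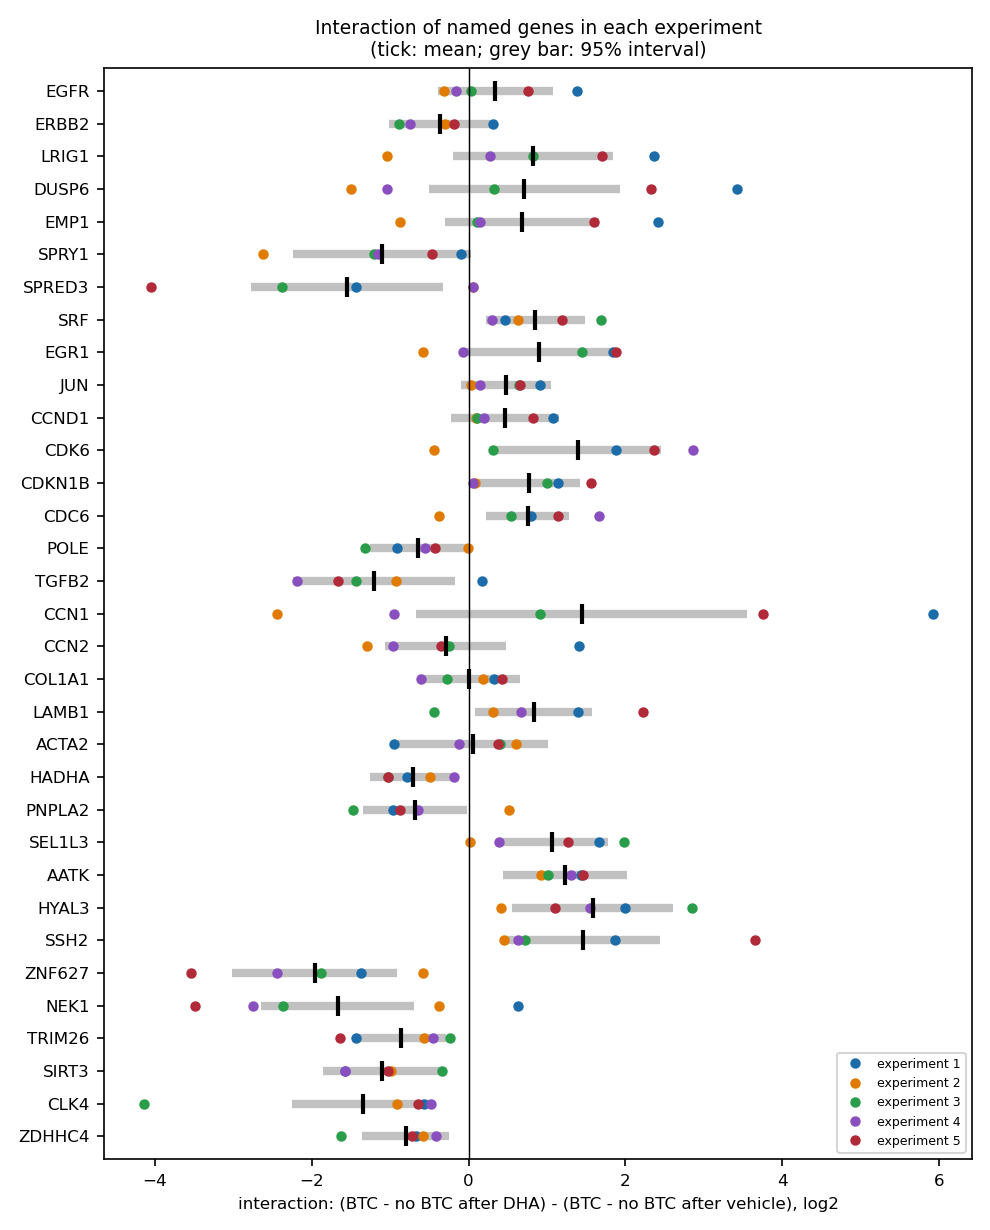
Interaction (log2, horizontal axis) of named genes in each of 5 experiments (coloured points), with the mean as a black tick and the 95% interval from limma as a grey bar. Points of AATK lie close together, from 0.93 to 1.46, while those of CCN1 run from -2.44 to 5.92.

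Averaged over DHA and vehicle, limma called 0 of 15137 genes (0%) for BTC, with 1516 (10%) at an unadjusted p under 0.05, of which 524 were higher and 992 (6.55%) lower with BTC. edgeR called 0, with 1290 (8.52%) unadjusted, 693 higher and 597 lower. DESeq2 called 7 (0.0462%), with 1534 (10.1%) unadjusted, 983 higher and 551 lower, so the direction of the split depended on the tool. The 1516 fell to 948 without Veh+BTC of experiment 1 and to 616 without Veh+BTC of experiments 1 and 5. Of the 7, EIF3A, PIGM, BDP1, BRD7 and RN7SL1 were higher and CCN2 and GLRX lower with BTC. DESeq2 gave no adjusted p for 5870 genes. limma on the per-experiment values called 3, all lower, CCN2 and GNB2 among them. Of the 1516 genes, 60 (3.96%) had an interaction at an unadjusted p under 0.05, near the 3.48% of all genes. GLRX and the genes after it were picked by a small p for this BTC average, so agreement between their pairs is descriptive. GLRX, a glutaredoxin, had 19.4, 8.09, 9.90, 16.9 and 8.83 CPM in DHA+BTC cells, against 19.8, 24.0, 33.9, 31.5 and 13.6 CPM in DHA+Veh cells. It had 4.85, 14.2, 9.75, 11.9 and 2.91 CPM in Veh+BTC cells, against 31.4, 22.2, 29.2, 15.6 and 12.0 CPM in Veh+Veh cells. GLRX was lower with BTC in 10 of 10 pairs, by -0.92 after DHA and -1.33 after vehicle, with an interaction of 0.41 (-0.57 to 1.40), or 0.02 without Veh+BTC of experiments 1 and 5. TLR4, the endotoxin receptor, was likewise lower in 10 of 10 pairs (-0.88 after DHA, -0.71 after vehicle), and BRD7, a chromatin remodelling subunit, higher in 10 of 10 (0.78 after DHA, 0.58 after vehicle). Their interactions were -0.18 (-1.03 to 0.68) and 0.20 (-0.51 to 0.90). EIF3A, the scaffold of the initiation factor eIF3, was 0.31 higher after DHA and 0.99 higher after vehicle, with an interaction of -0.68 (-1.40 to 0.04). PRMT2, an arginine methyltransferase, had 0.31 and 0.50 (interaction -0.19, -0.62 to 0.24), and MARCHF4, a membrane ubiquitin ligase, -0.84 and -1.40 (interaction 0.55, -0.59 to 1.70, and -0.43 without Veh+BTC of experiments 1 and 5).

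Oleic acid, a monounsaturated fatty acid, was given in the same experiments at 50 µM with and without BTC, 5 libraries each, and serves as a fatty acid other than DHA. The BTC difference after DHA minus that after oleic acid was called for 0 of 15137 genes (0%) by limma, with 572 (3.78%) at an unadjusted p under 0.05, 294 above and 278 (1.84%) below 0, and for 0 by edgeR, with 367 above and 185 below 0 at an unadjusted p under 0.05, and by DESeq2, with 488 above and 203 below. The oleic acid plus BTC library of experiment 2 stood apart, with 429 CPM of leukocyte markers and 51.6 CPM of endothelial markers, against 47.3 to 154 CPM and 3.92 to 24.3 CPM in the other 29 libraries. Without it limma called 0 genes, with 515 unadjusted. Without experiments 1 and 5, limma called 290 of 15137 genes, 288 of them below 0. With that library also left out it called 121, 120 of them below 0. Both settings were chosen after seeing the data and keep only experiments 2 to 4. The median difference over all genes was -0.09 in each, against -0.03 with all experiments. For EGFR the difference was 0.10 (-0.63 to 0.84), and for ERBB2 -0.41 (-1.06 to 0.24). Among genes described above and named here after their values were seen, BRD7 had 1.32 (0.61 to 2.02), GLRX -1.14 (-2.13 to -0.16) and CCN2 -0.90 (-1.67 to -0.12), each with an adjusted p of 0.999 by limma. These genes were picked by the BTC average, which holds the BTC difference after DHA, so their values and intervals here are descriptive.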

How the data were processed

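RNA of LX2 cells was sequenced from the 3' end (QuantSeq), per the labels' protocols, and the submitters' processing notes name STAR 2.5.3a and HTSeq 0.6.0. Genome build, annotation and strand setting are not given in the sources used here. The authors deposited CPM values, counts of reads assigned to genes scaled to a fixed total per library, and these came out as whole reads for 100% of values (tolerance 0.01). Genes with at least 1 CPM in at least 5 of 30 libraries were kept, 15137 of 61597. log2(CPM + 1) was fitted in limma 3.58.1 (R 4.3.3) with group and experiment as terms over all 30 libraries, and p-values were adjusted by Benjamini-Hochberg over all tested genes. edgeR 4.0.16 and DESeq2 1.42.0 were run on the recovered reads. Methods were tested on simulated data.

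The experiment number pairs libraries: all 75 same-experiment pairs correlated above 0.1 in their deviations from group means (lowest 0.119, median 0.507), against a median of -0.199 in 360 other pairs. Named genes were the 12 smallest interaction p-values in each direction at 5 CPM or more, the same for BTC averaged over pretreatments, fixed pathway genes, and up to 4 genes per list by p. Part of that pool is printed. The members and lists were chosen with earlier results of these data known. Alternatives covered pseudocount, filter, scaling, tool, block, depth and left-out libraries. GC content came from GENCODE release 29.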

Additional observations from a re-analysis of the deposited data

Results flagged for a closer look

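The interaction of CLK4 in experiment 3 was -4.14, far from the other 4 experiments, which lay between -0.91 and -0.48. ZDHHC4 in experiment 3 likewise stood at -1.62, against -0.72 to -0.41 in the others. The interaction of the read totals was 4935879 reads in experiment 1, against -1605835 to -884244 in the others, because Veh+Veh of experiment 1 held 9490142 reads. These were the 3 values of 88 sets of 5 experiments that lay apart by Dixon's criterion, where chance gives about 1 in 20.

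For 3 of 83 named genes the BTC difference had opposite signs in the DHA and vehicle arms in all 5 experiments. They were HADHA with an interaction of -0.70, SSH2 with 1.46 and SIRT3 with -1.10. The test of the interaction itself did not pass, with an adjusted p of 0.983 by limma for each. All 3 were picked by a small interaction p, which favours opposite signs, and the share over all genes is not given.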

How the results depend on the processing

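The interaction gave 0 called genes under all 44 alternatives, with 358 (without experiment 5) to 1090 (without experiment 2) genes at an unadjusted p under 0.05 when libraries or experiments were left out, and 130 with no replicate block. Experiments 1 and 5 left out together, chosen after seeing the data, gave 1073 such genes, of which 137 were among the 527. Of 83 genes examined singly, 54 kept their sign in every alternative, and the smallest adjusted p was 0.639. Many of the 83 were picked by a small interaction p, and the alternatives reuse the same libraries, so a kept sign is descriptive. BTC after DHA, and the DHA and oleic acid difference when single libraries or experiments were left out, kept 0 calls. BTC after vehicle had 1 call by DESeq2, and the BTC average 7 by DESeq2 and 3 with the replicate block within each pretreatment. Calls for the DHA average were 950 by edgeR, 104 with no replicate block, 321 with the block within each pretreatment, 1001 with only the 20 libraries, 575 without the 3 shallowest libraries, and 763 to 2071 when replicates were left out. The DHA and oleic acid difference had 290 calls with experiments 1 and 5 left out and 121 with the oleic acid plus BTC library of experiment 2, whose leukocyte markers summed to 429 CPM, left out too; the DHA average then had 1001. The cause was not tested. The 20-library fit gives no oleic acid value. At the shallowest depth, 3 reads are 2.41 CPM.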
